A study of Saccharomyces cerevisiae with 255 samples.

Results

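The share of tagged reads and the level of 10 heat-shock and stress transcripts of Saccharomyces cerevisiae were followed through an RNA-tagging series of 90 strains. The members are given by name among the 6629 genes of the files, by a rule that holds no measured value, though earlier results of these data were known when it was set. They are the Hsp70 genes SSA1 (YAL005C), SSA2 (YLL024C) and SSA4 (YER103W), the Hsp90 genes HSP82 (YPL240C) and HSC82 (YMR186W), the disaggregase HSP104 (YLL026W), the small heat-shock genes HSP42 (YDR171W), HSP26 (YBR072W) and HSP12 (YFL014W), and the stress gene DDR2 (YOL052C-A). All 10 were present in every library table. In these BY4741 strains an RNA-binding protein was fused at its own locus to Pup2, a poly(U) polymerase that adds Us to the 3′ end of the transcripts the protein meets. There were 34 intact fusions with 109 libraries, 50 deletion strains of 8 of the proteins with 127 libraries, 3 fusions of Puf3, Puf4 and Puf5 to catalytically dead Pup2 (dPup2) with 11 libraries, and 3 C-SWAT control strains of the same proteins without Pup2 with 8 libraries. All were BY4741 cultures grown in glucose medium and taken in exponential phase, with no heat shock or other stress named. The name of a deletion strain says which RNA-binding domain (RBD), disordered region (IDR) or protein end (T) was removed, and 3′ reads cannot check that label. The 2 strains Pub1_T2_Trc6 and Pub1_T2_Trc9 carry 1 strain name in the labels and were kept apart by their titles. Puf3_T7_del465 and Puf3_T7_del513 were likewise set apart by their titles.

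Hsp70 and Hsp90 are ATP-driven chaperones that fold new and damaged proteins, and budding yeast keeps for each a copy made at all times (SSA2, HSC82) and a copy that heat induces strongly (SSA1, SSA4, HSP82). Hsp104 pulls aggregated proteins apart, Hsp42 and Hsp26 hold unfolded proteins, and Hsp12 is a small membrane-associated protein. The transcription factor Hsf1 drives the chaperone genes through GAA blocks, while Msn2 and Msn4 drive the general stress response, to which HSP12, DDR2 and HSP26 belong, through the element AGGGG. Transcripts of the general stress response are also higher in cells that grow slowly or leave exponential growth, which is why their level is read as a sign of the state of a culture.

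Depth ran from 93564 to 5768639 reads per library (median 1045022), and 10 libraries had fewer than 200000. Reads were counted at the transcript end alone, so levels in RPM (a transcript's reads scaled to 1000000 reads in the library) can be set side by side without a correction for length. The adapter carried a molecular identifier, and whether the counts are of reads or of identifiers is not given in the sources used here, so that PCR copies may be among them. A read was taken as tagged when it ended in 4 to 13 Us, and the tagged share is the percentage of a transcript's reads that were tagged. In the 11 dPup2 libraries together, 2 of 15629 SSA2 reads (0.0128%) and 1 of 9595 HSC82 reads (0.0104%) were tagged. No other member had a tagged read there, which allows a share of up to 0.0619% for SSA1 (4850 reads), 0.464% for HSP12 (647 reads), 1.0% for DDR2 (300 reads) and 1.64% for HSP26 (183 reads), by counting error alone. The same 11 libraries were the control of every comparison with dPup2. The 16 intact strains with reliable tagging, taken as a median correlation over genes of more than 0.6 between reads with different numbers of Us, were compared with them. A member was tested where it had at least 10 tagged reads and averaged at least 16 RPM over the libraries compared. The other 9 of these strains had no such member. Almost no member read was tagged in dPup2, so a member met the 10 reads through the strain compared with it. A call is thus no support beyond the shares themselves.

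Pub1, a protein with RRM domains that binds U-rich sequence, tagged 5 of the 10 members, as many as Sro9, and at higher shares for SSA2 and HSC82. It tagged SSA2 in 40.5%, 48.7%, 54.0% and 44.8% of the reads of replicates 1 to 4, and HSC82 in 35.9%, 40.5%, 37.8% and 40.0%. HSP12 reached 16.9%, 44.9%, 60% and 28.6%, from 195, 98, 15 and 7 reads, so that the last 2 values rest on few reads. The median share over the 4275 expressed genes was 2.81% in Pub1, and SSA2 ranked 2 among them by its share. HSC82 and HSP12 lay at percentiles 98.2 and 93.3. Each Pub1 library lay above each dPup2 library for these 3 transcripts, and how many other genes separated as fully was not counted. The tagged reads of 5 members passed edgeR's quasi-likelihood test against dPup2 with Benjamini-Hochberg adjustment (SSA2 adjusted p = 5.95e-48, HSC82 3.79e-47, HSP12 1.28e-16, SSA1 8.68e-15, HSP82 9.22e-10). This is no mark of the members, since 99.9% of the 1488 genes tested passed it. The other 5 members were not tested, DDR2 for its low level and the other members for too few tagged reads. DDR2 had 14.3%, 20%, 50.0% and 50.0% from 35, 15, 2 and 2 reads, SSA4 had 8 tagged of 70 reads, HSP104 6 of 196, HSP42 3 of 70, and HSP26 0 of 34, which allows up to 8.82%.

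**Figure D1:**
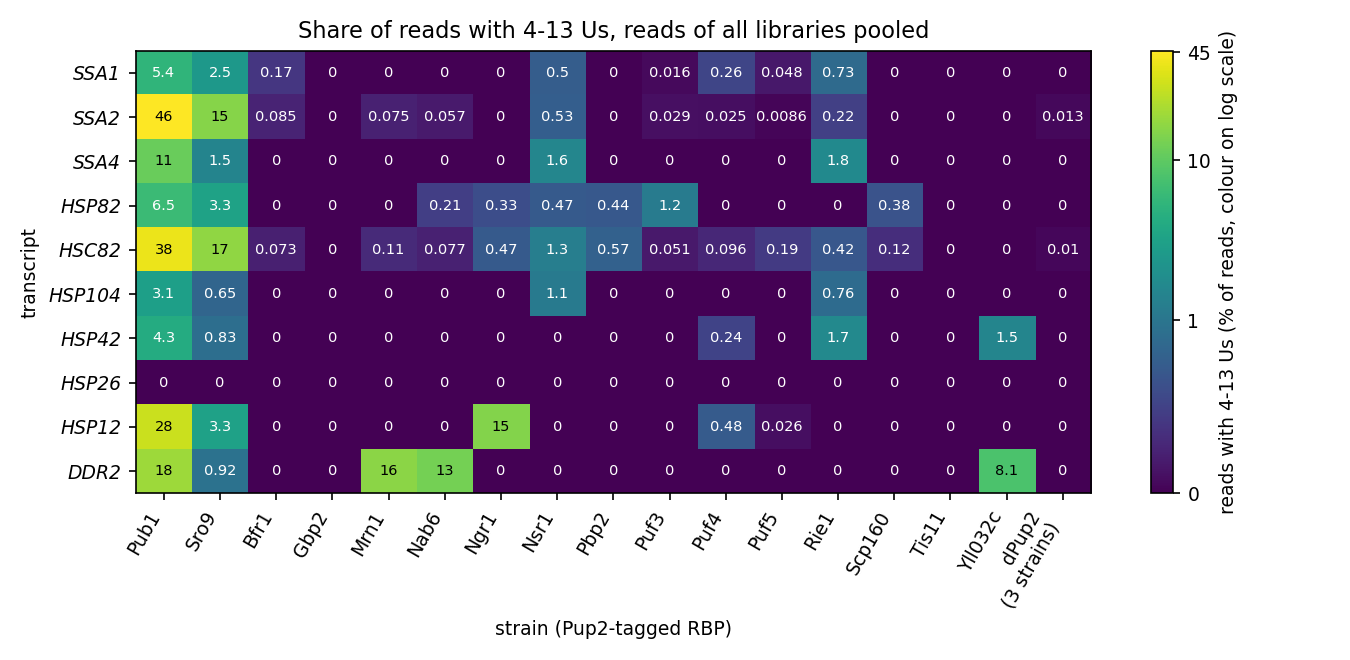
Tagged share (reads with 4 to 13 Us, in % of the reads of all libraries of a strain pooled, colour on a log scale) of the 10 transcripts in the 16 intact strains with reliable tagging and in the 3 dPup2 strains together. Pub1 and Sro9 carry the high values of SSA2 and HSC82, Ngr1 carries a high value of HSP12 alone, and dPup2 is at or near 0 throughout.

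Within each chaperone family Pub1 tagged the copy made at all times far more than its heat-induced relative. SSA1 had shares of 3.36%, 6.93%, 13.3% and 0% in replicates 1 to 4, against 40.5% to 54.0% for SSA2. The difference within a library was 41.1 ± 3.16 percentage points (SD, n = 4 libraries), positive in 4 of 4, and the exact two-sided sign-flip test gave p = 0.125, the smallest that 4 libraries allow. HSP82 had 7.59%, 4.65%, 6.67% and 6.25%, and HSC82 exceeded it by 32.3 ± 3.27 points (SD, n = 4, exact p = 0.125), again in 4 of 4. SSA2 and HSC82 were also the more abundant copies in Pub1, with means of 1381 and 1010 RPM against 170 for SSA1 and 81.6 for HSP82. The authors explain tagging by Pub1 and Sro9 largely by the abundance of the transcript. Whether the difference between the copies follows their level was not tested. The 2 copies can be counted apart: of the 376 words of 25 bases in the counted stretch, 24 were shared by SSA1 with SSA2 and 21 by HSP82 with HSC82, and none of them lay after the stop codon. The 30 bases after the stop codon that are richest in T are shown for the 4 chaperones, for HSP12 and for DDR2, since U-rich stretches are what Pub1 is known to bind, with runs of at least 4 Ts in capitals.
SSA2 (chrXII:95497-95526, minus strand): TTTTgctttcctctgtaTTTTTTaaTTTTT
SSA1 (chrI:139410-139439, minus strand): aTTTTccgaacgTTTTTactttatatatat
HSC82 (chrXIII:634498-634527, plus strand): tatattatataaatttgtttacttaTTTTT
HSP82 (chrXVI:96350-96379, minus strand): attacaatgtaTTTTTTTagagTTTTcact
HSP12 (chrVI:107597-107626, plus strand): ctctttgtagttacatggTTTTTTctttat
DDR2 (chrXV:231427-231456, minus strand): atttggtgctttaaTTTTTTTTctcttctt
These windows lie outside the coding sequence and begin 40 (SSA2), 64 (SSA1), 26 (HSC82), 117 (HSP82), 12 (HSP12) and 114 (DDR2) bases after the stop codon. The SSA2 window held 21 Ts, as many as the richest window of 9.52% of 5933 genes or more, against 16 in SSA1 (59.9% of genes). HSC82 held 19 (23.3% of genes) and HSP82 16. Over the 150 bases after the stop codon T made up 36.0% in SSA2 and in SSA1 alike, 43.3% in HSC82 and 32% in HSP82, with a median of 35.3% over all genes. The longest run of T was 7 in HSP82 and SSA2, 6 in HSC82 and 5 in SSA1. Over 4229 genes the T content correlated with the Pub1 share with Pearson's r = 0.37 and Spearman's rho = 0.36, a description over genes that share the same 4 libraries. Coordinates and sequences are of the R64 assembly in RefSeq, and the true 3′ ends of these transcripts were not used here.

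Sro9, a La-motif protein found on polysomes, tagged the same 5 members as Pub1 (5 of 5 tested, background 99.6% of 723 genes). SSA2 had 15.2% and 12.7% in its 2 libraries and HSC82 16.8% and 13.3%, while SSA1 had 2.61% and 0% and HSP82 3.11% and 9.09%. The order of the copies was thus the same as in Pub1: SSA2 exceeded SSA1 by 12.6 ± 0.0366 points (SD, n = 2) and HSC82 exceeded HSP82 by 8.96 ± 6.67 (n = 2), with an exact p = 0.50, the smallest that 2 libraries allow. SSA2 and HSC82 were the more abundant copies here too, with means of 726 and 617 RPM against 473 for SSA1 and 120 for HSP82. The Sro9 library of replicate 2 held only 93564 reads, against 2361683 in replicate 1, and without replicate 1 only SSA2 was tested and called. HSP12, at 1323 and 299 RPM, was tagged in 3.23% and 7.14% of reads.

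Fewer members passed the test in Nsr1 and in Ngr1. Nsr1, a nucleolar protein with RRM domains, tagged HSC82 in 0.473%, 0.762%, 3.47% and 3.49% and SSA2 in 0.299%, 0.503%, 1.85% and 0.382% of reads, and both passed the test (adjusted p = 8.92e-17 and 4.25e-10, edgeR, background 99.4% of 360 genes). Too few tagged reads kept SSA1 (7 of 1388 reads, 0.504%), HSP82 (3 of 635, 0.472%) and HSP104 (2 of 180, 1.11%) from the test. SSA2 had 14 of 2667 (0.525%) with its libraries pooled, so the calls do not set it apart from SSA1. Ngr1, an RRM protein that promotes decay of porin mRNA, tagged HSP12 in 11 of 82 reads (13.4%) and 7 of 40 reads (17.5%). That share ranked 1 among the 4380 expressed genes of Ngr1, and HSP12 passed the test (adjusted p = 2.02e-06, edgeR) where 47.8% of only 69 genes tested did. No other member exceeded 0.752% in any Ngr1 library among SSA1, SSA2, HSP82, HSC82, SSA4 and DDR2. DESeq2 did not call HSP12 in Ngr1, and without replicate 1 it fell below the 10 reads.

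The Puf proteins read short UGUA elements after the stop codon through their PUM repeats. In Puf3, Puf4 and Puf5 a different member passed the test, each at a low share. Puf3 tagged HSP82 (adjusted p = 1.64e-04, edgeR, background 83.2% of 458 genes) with a lowest share of 0%, a median of 1.26%, a highest of 3.49% and a mean of 1.44 ± 1.17% (SD, n = 12 libraries). Puf4 tagged SSA1 (adjusted p = 8.78e-04, background 93.6% of 391 genes) in 0.262%, 0.237%, 0.270% and 0.261% of reads. That was 10 tagged of 3890 reads, just the minimum for the test. Puf5 tagged HSC82 (adjusted p = 3.47e-04, background 68.3% of 167 genes) with 0.216 ± 0.114% (SD, n = 6), from 11 tagged of 5893 reads. These are small shares, above 0 in 10 of 12, 4 of 4 and 6 of 6 libraries. Each of the 3 members met the read minimum through its Puf strain, so its p-value adds nothing to the share. Such shares also occurred where a member had too few tagged reads for the test. HSC82 had means of 0.484% in Ngr1 and 0.428% in Rie1, and 0% in Gbp2, Tis11 and Yll032c. SSA1 had a mean of 0.813% in Rie1 and 0% in Ngr1 and Mrn1. The Puf4 and Puf5 calls were lost when tagged reads had to carry at least 5 Us, since the members then had under 10 reads, and that of Puf4 also without any single library, for the same reason, and with DESeq2 (adjusted p = 0.109) or limma (0.289). With reads of up to 16 Us counted, all 3 calls ended, with log2 ratios of 0.16 for HSP82, -0.27 for SSA1 and -0.07 for HSC82. The elements found in the 300 bases after the stop codon are shown in capitals on the transcript strand, with TGTANATA the Puf3 form, TGTANANTA the Puf4 form and TGTA followed after 4 more bases by TA the Puf5 form.
HSP82 (chrXVI:96401-96428, minus strand, Puf3 form): taaataagtaTGTAAATAgggcatctgc
SSA2 (chrXII:95266-95286, minus strand, Puf3 form): gtatacaatgTGTATATAcgc
SSA2 (chrXII:95532-95560, minus strand, Puf4 form): gcgatcgcccTGTAAAATAtccgaaaagt
HSC82 (chrXIII:634657-634686, plus strand, Puf5 form): taaagtttagTGTACACTTAcgaatgactt
On this strand the Puf3 form occurs in 16.4%, the Puf4 form in 8.66% and the Puf5 form in 25.2% of 5933 genes in the same window. HSP82 holds its element 78 bases after the stop codon and HSC82 holds its element at 195, while SSA1, the transcript Puf4 tagged, holds none of the 3 in this window. SSA2 holds a Puf4 element at 16 and a Puf3 element at 290, near the end of the 300 bases searched. Whether the SSA2 transcript reaches base 290 was not checked. The SSA2 share did not exceed 0.217% in any Puf3 library or 0.0816% in any Puf4 library.

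The same 3 transcripts were followed through the deletion strains of their Puf protein, a choice made after these values were seen. HSP82 was tagged in 5.34 ± 1.23% of reads in Puf3_T7_del465 (SD, n = 4, range 3.75% to 6.49%), against 1.44 ± 1.17% in intact Puf3 (n = 12). The exact two-sided permutation test gave p = 0.0011 (smallest possible 5.5e-04) and an adjusted p of 0.0121 over the 11 deletion strains compared. The other 10 did not pass. Means of 4.15% in Puf3_T7_del513, 6.61% in Puf3_Δnon-RBD and 4.46% in Puf3_T6 had an adjusted p of 0.0725 each, and Puf3_ΔRBD had 0 tagged of 285 reads (adjusted p = 0.0846, exact permutation). SSA1 showed shares of 1.08%, 1.11% and 1.07% in Puf4_T3 and of 2.64% and 4.00% in Puf4_ΔIDR, all above the 4 intact Puf4 libraries, as were the 0.328% to 1.68% of the 4 libraries of Puf4_T1. Puf4_T2 had 0%, 0.145% and 1.76%, on both sides of the intact range. No SSA1 read was tagged of 2375 in Puf4_ΔRBD, which allows up to 0.126%, none of 490 in Puf4_T4 (up to 0.612%) and none in both libraries of Puf4_T4&ΔIDR (up to 0.570%). HSC82 had means of 1.11 ± 0.649% in Puf5_T3 (SD, n = 4) and 1.17 ± 0.296% in Puf5_T4 (n = 2), against 0.216 ± 0.114% in intact Puf5. The means of 0.882 ± 0.751% in Puf5_T5 and 0.637 ± 0.506% in Puf5_T6 (n = 3 each) were above it, with libraries inside the intact range. Those of 0.0517 ± 0.0895% in Puf5_T1 (n = 3), 0.123 ± 0.107% in Puf5_T2 (n = 4) and 0.117% in Puf5_T1Δintron (n = 3, range 0% to 0.287%) were below it, and Puf5_ΔRBD had 0 of 1605 reads, which allows up to 0.187%. The Puf4 and Puf5 differences were not tested, and how many other genes separated in the same way was not counted.

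Deletions within Pub1 lowered the tagging of its members to very different degrees. SSA2, at 47.0% on average in intact Pub1, had 24.3% and 24.4% in the 2 libraries of Pub1_ΔT1, 12.2% and 10.8% in Pub1_Δ2, 9.35% and 9.36% in Pub1_ΔIDR_3, and 5.08% and 5.90% in Pub1_Δ4. It fell further to 3.04% and 1.90% in Pub1_ΔIDR_1, 0.714% and 0.971% in Pub1_T2_Trc6, 0.163% to 0.387% in the 3 libraries of Pub1_ΔIDR_2, and 0.0923% and 0% in Pub1_T2_Trc9. SSA2 passed the test in each of the 8 strains, where from 20.4% (Pub1_ΔT1) to 99.0% (Pub1_T2_Trc9) of all genes tested were called lower. No deletion library overlapped the intact ones for SSA2, and how many other genes separated as fully was not counted. HSC82 kept more of its tagging. It had 45.9% and 49.9% in Pub1_ΔT1, 26.9% and 26.4% in Pub1_Δ2, 20.7% and 17.6% in Pub1_ΔIDR_3 and 17.7% and 18.6% in Pub1_Δ4, but at most 1.03% in Pub1_ΔIDR_2 and 0.122% in Pub1_T2_Trc9. On the log2 scale the HSC82 ratio to intact Pub1 was -1.61 in Pub1_ΔIDR_1 and -1.09 in Pub1_Δ4, where SSA2 had -4.36 and -3.10 and the median of all genes tested was -3.18 and -2.63. In Pub1_ΔT1 HSC82 had 0.32 (adjusted p = 0.086, edgeR) where SSA2 fell by 0.94 (adjusted p = 8.15e-09) and the median gene had -0.53.

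HSP12 differed from both. It kept 20.5% and 24.8% in Pub1_Δ2, 29.1% and 13.5% in Pub1_ΔIDR_3 and 17.5% and 17.3% in Pub1_ΔT1, of which 1 value, 13.5%, lay below the intact libraries. It passed the test in Pub1_ΔT1 (log2 ratio -0.82, adjusted p = 0.00592) and not in Pub1_Δ2 or Pub1_ΔIDR_3. It had 0% and 1.19% in Pub1_ΔIDR_1, where its log2 ratio was -4.95 (adjusted p = 1.43e-20, edgeR). In Pub1_Δ2 the heat-induced copies did not pass the test. SSA1 had 7.25% and 8.85% there (log2 ratio 0.55, adjusted p = 0.138) and HSP82 8.89% and 7.56% (0.35, adjusted p = 0.525), within or near their intact range, while SSA4 had a log2 ratio of -1.22 (adjusted p = 0.267) and the median gene -1.40. In Pub1_ΔIDR_2, Pub1_T2_Trc6 and Pub1_T2_Trc9 HSP82 had no tagged read.

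Counted over the members tested, 6 had fewer tagged reads than in intact Pub1 in Pub1_ΔIDR_2 (98.2% of all genes lower and 0% higher), in Pub1_T2_Trc6 (88.1% and 0%), in Pub1_T2_Trc9 (99.0% and 0%) and in Pub1_Δ4 (80.6% and 0.0644%). There were 5 in Pub1_ΔIDR_1 (86.8% and 0.124%), 3 in Pub1_ΔIDR_3 (56.8% and 0.282%), 3 in Pub1_ΔT1 (20.4% and 1.77%) and 2 in Pub1_Δ2 (57.3% and 2.45%). No member was called higher in any of the 8 strains with all libraries in the fit, at an adjusted p under 0.05. In Pub1_ΔIDR_2, Pub1_T2_Trc6, Pub1_T2_Trc9 and Pub1_Δ4 every member tested was called lower. Where a deletion strain had few tagged reads, a member met the read minimum through intact Pub1. HSP82 did so with 18 tagged reads in intact Pub1 and 0 in each of the first 3 strains. Such a call is no support beyond the shares themselves. The 8 comparisons share the 4 intact Pub1 libraries, so their calls are not independent. Without intact replicate 1, HSC82 was called higher in Pub1_ΔT1, and without intact replicate 2, SSA2 alone remained of the 3 calls there.

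**Figure D2:**
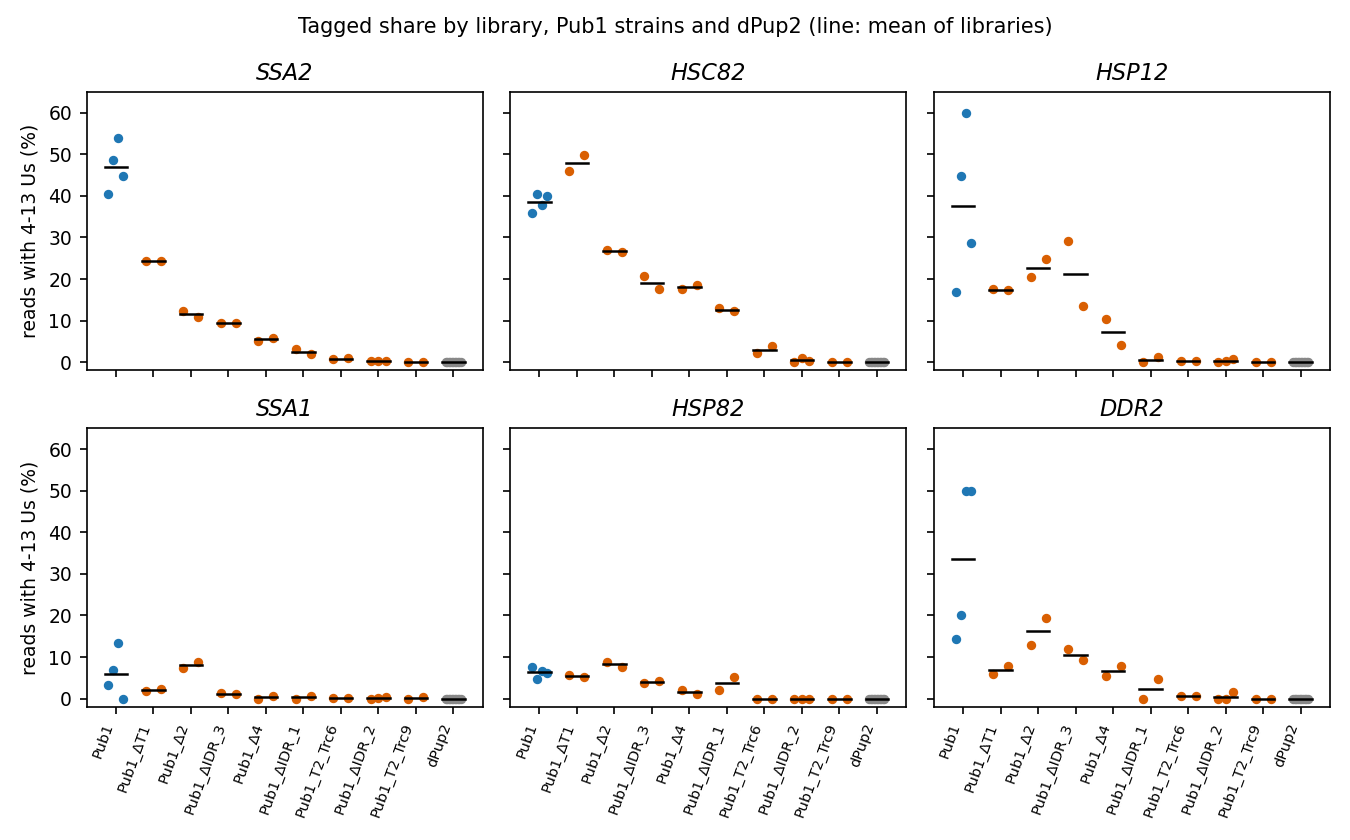
Tagged share (% of reads with 4 to 13 Us) of 6 transcripts in each library (points) of intact Pub1 (blue), 8 Pub1 deletion strains (orange) and the dPup2 strains (grey), with the mean of the libraries as a line. SSA2 falls from 47.0% to 24.3% in Pub1_ΔT1 while HSC82 goes from 38.6% to 47.9%, and both are at or near 0 in Pub1_T2_Trc9.

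The length of the added tails also differed between the members. In intact Pub1 the tagged HSC82 reads carried 9.19 Us on average and 69.3% of them carried 8 to 13, against 7.76 Us and 45.5% over all tagged reads of the strain. SSA2 (7.59 Us, 43.3%) lay close to that background and HSP12 (6.97 Us, 26.1% of 88 reads) below it. In Sro9 tails were shorter for all genes (6.45 Us), and HSC82 (6.64) and SSA2 (6.35) lay close to it. Reads with 16 Us, the longest class of the files, are not counted as tagged, yet they made up 21.8% of HSC82, 18.8% of HSP82 and 15.3% of SSA2 reads in Pub1, against 6.57%, 6.62% and 6.33% in dPup2. The printed Pub1 shares may thus leave out long tails, though this class also varied between libraries without tagging. In single libraries with 0 tagged SSA2 reads, 51 of 263 (Ecm32 replicate 3) and 25 of 119 SSA2 reads (Dhh1 replicate 3) had 16 Us. With reads of up to 16 Us counted the same 5 members were called in Pub1, 2 in Sro9 and none in Nsr1 or Ngr1. The lengths are descriptions over reads of the same libraries, and no test was made of them.

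The level of the members, which carries no information on binding, varied widely over the libraries. HSP12 ranged from 0 to 4636 RPM with a median of 52.7, and its upper decile was 49.9 times its lower decile. This ratio was 14 for DDR2 (median 15.6 RPM), 11.4 for HSP26 (10.8), 9.25 for HSP42 (19), 5.51 for SSA1 (293), 4.16 for HSP104 (68.3), 3.70 for SSA4 (20.3) and 2.97 for HSP82 (98.8). The chaperone copies made at all times were the steadiest, at 2.47 for SSA2 (median 903 RPM) and 1.91 for HSC82 (645 RPM). The SD of log2(RPM + 1) was 2.16 for HSP12, rank 22 of the 4436 expressed genes, 1.54 for DDR2 (rank 28), 1.42 for HSP26 (rank 31) and 1.35 for HSP42 (rank 36), against 0.53 for SSA2 and 0.39 for HSC82 and a median of 0.51 over all genes. HSP26, HSP42, SSA4 and DDR2 are low, and counting error adds to their spread.

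**Figure D3:**
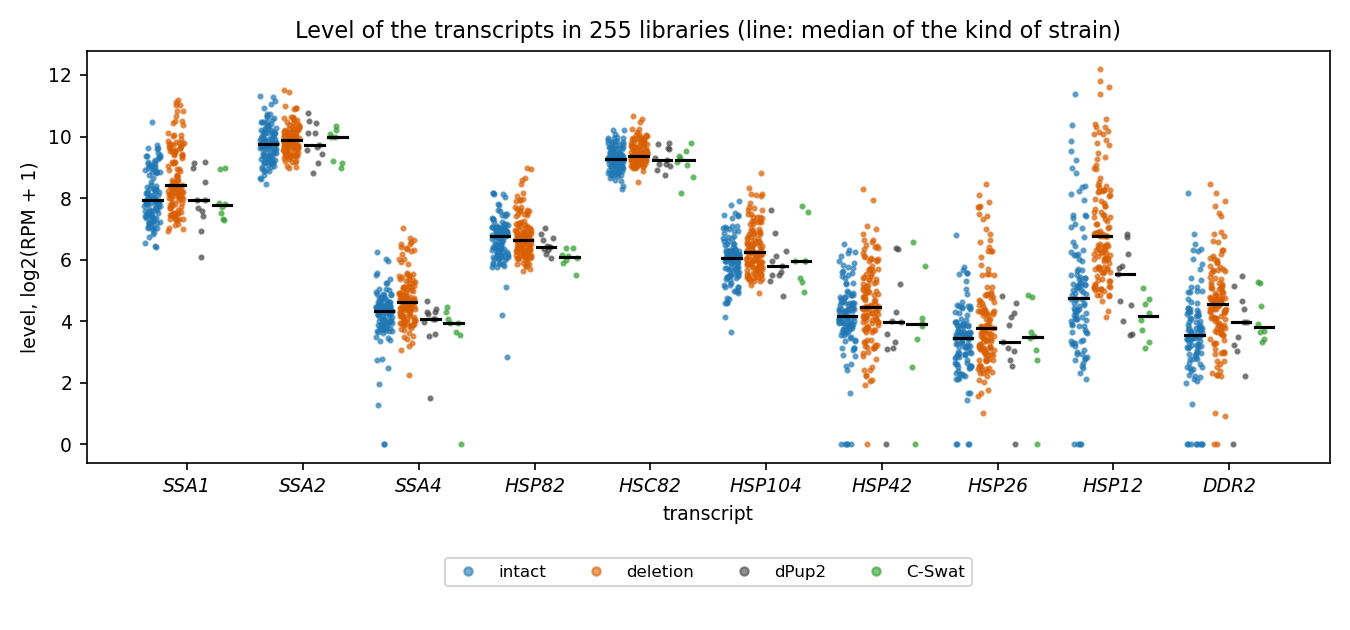
Level of the 10 transcripts, as log2(RPM + 1), in each library of the series (points), by kind of strain, with the median of each kind as a line. HSP12 spans from 0 to 4636 RPM while HSC82 stays between 287 and 1631 RPM.

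Of the genes named beside the members, those of the general stress response varied in the same way and most chaperones did not. Among 22 general stress genes 16 were expressed, and 14 of them had an SD above that of the upper decile of all genes (0.72), led by HXK1 (1.67) and GPH1 (1.55), which feed glucose and glycogen into metabolism, with DDR48 (0.65) and the trehalase gene NTH1 (0.59) the lowest. Among 17 chaperones and Hsf1 partners 5 did, with HSP78 (1.0) and BTN2 (0.98) the highest and the Hsp90 partners CDC37 (0.34) and SBA1 (0.25) the lowest. In a test over all strains together, the level of 10 of 10 members differed between strains by more than between libraries of a strain (edgeR, quasi-likelihood F test with Benjamini-Hochberg adjustment), where 62.5% of 5767 genes did. By the F value of that test HSP12 ranked 27, HSP26 53, SSA1 106 and DDR2 131, while SSA2 ranked 1324 and HSC82 1842.

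The promoters were searched for the elements of the 2 stress regulators, since several members moved together. In the 450 bases that end 150 bases before the start codon the element AGGGG, on either strand, occurred 5 times in HSP12, 4 times in DDR2, 3 times each in HSP26, HSP42, HSP104 and SSA4, 2 times in SSA1, 1 time in HSP82 and not in SSA2 or HSC82. Of 5935 promoters 32.4% hold at least 1, 1.67% at least 3 and 0.303% at least 5. Stretches are printed with the element in capitals for HSP12 and DDR2, the most variable members, and for HSP26, on the strand of the gene.
HSP12 (chrVI:106811-106883, plus strand): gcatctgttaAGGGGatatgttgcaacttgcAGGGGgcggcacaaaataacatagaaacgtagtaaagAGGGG
DDR2 (chrXV:231926-232013, minus strand): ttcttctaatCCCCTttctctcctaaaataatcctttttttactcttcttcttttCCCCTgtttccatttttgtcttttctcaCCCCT
HSP26 (chrII:381541-381579, plus strand): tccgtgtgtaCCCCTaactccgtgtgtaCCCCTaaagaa
The Hsf1 blocks TTCNNGAA and GAANNTTC, which overlap each other in longer arrays, are shown in the same way for the 2 Hsp90 genes and for SSA4.
HSC82 (chrXIII:632128-632177, plus strand): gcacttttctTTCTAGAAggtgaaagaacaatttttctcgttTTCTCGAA
HSP82 (chrXVI:98853-98870, minus strand): tttcttttttTTCTAGAA
SSA4 (chrV:364326-364343, plus strand): atgaagtacaTTCTAGAA
TTCNNGAA occurred 3 times in HSP104 and SSA1, 2 times in HSP42, SSA2 and HSC82, 1 time in HSP26, SSA4 and HSP82 and not in HSP12 or DDR2, and 19.8% of promoters hold at least 1 and 2.22% at least 2. GAANNTTC occurred 2 times in SSA1 and SSA2, 1 time in HSP42, HSP104 and DDR2 and not in the other 5, and 17.9% of promoters hold at least 1 and 1.38% at least 2, so that HSP12 alone among the members held neither. A match is a description of letters and no evidence that a factor was bound in these cells.

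Large shifts in level were seen in Pub1 strains, and these were tested after that had been noticed. HSP12 had 168, 74.3, 34.9 and 29 RPM in replicates 1 to 4 of intact Pub1. It had 3580 and 4636 RPM in Pub1_T2_Trc6, 1085 and 3155 in Pub1_Δ4, 1273 and 1125 in Pub1_T2_Trc9 and 939 and 707 in Pub1_ΔT1, so that all 8 libraries lay above the 4 intact ones. The log2 difference was 5.73 (SE 0.43) in Pub1_T2_Trc6, 4.84 (0.48) in Pub1_Δ4, 3.88 (0.42) in Pub1_T2_Trc9 and 3.41 (0.41) in Pub1_ΔT1, each past the edgeR test (highest adjusted p = 3.06e-04). DDR2 rose with it, from 4.66 to 30.2 RPM in intact Pub1 to 239 and 349 RPM in Pub1_T2_Trc6, and SSA1 rose from 105 to 257 RPM to 1331 and 1637 RPM.

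Counted over the 10 members, 8 were higher than in intact Pub1 in Pub1_T2_Trc6 (12.9% of genes called higher and 12.6% lower) and 8 in Pub1_T2_Trc9 (13.8% and 15.5%), where only SSA2 and HSC82 did not rise. There were 6 in Pub1_Δ4 (9.46% and 9.42%) and 6 in Pub1_ΔT1 (4.42% and 2.60%), namely HSP12, DDR2, SSA1, HSP42, HSP104 and HSP82. The median log2 difference of the members was 2.23, 2.55, 1.68 and 1.56 in these 4 strains, beside medians of all genes between -0.03 and -0.01. The genes of the general stress list shifted alike, with 21, 20, 18 and 16 of the 21 tested called higher and none lower, and medians of 2.78, 3.10, 2.40 and 1.83. Of the 17 chaperones and Hsf1 partners 7, 8, 7 and 4 were called higher and 1, 1, 2 and 1 lower, with medians of 0.34, 0.54, 0.55 and 0.55.

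In the other 4 Pub1 strains at most 1 member was called higher. In Pub1_ΔIDR_2 the median log2 difference was still 1.11 over the 9 members tested and 1.23 over the 17 general stress genes tested, and 5 members were higher at an unadjusted p under 0.05. The members' medians were 0.07 in Pub1_ΔIDR_3, 0.26 in Pub1_ΔIDR_1 and -0.18 in Pub1_Δ2, and those of the general stress list 0.23, 0.21 and -0.19. SSA2 fell by 1.39 on the log2 scale in Pub1_ΔIDR_3 (525 and 570 RPM against 1230 to 1616, adjusted p = 2.70e-04), by 1.13 in Pub1_ΔIDR_1 (adjusted p = 0.00469) and by 0.96 in Pub1_Δ2 (adjusted p = 0.00361, lost without either Pub1_Δ2 library). In Pub1_T2_Trc9 it fell by 0.46 (adjusted p = 0.0436, edgeR), which was lost without any single library but intact replicate 4. Intact Pub1 was itself among the 9 highest strains for SSA2, at 1381 RPM on average against a median of 903 over all libraries. The means were 547 RPM in Pub1_ΔIDR_3, the lowest of all strains, 670 in Pub1_ΔIDR_1, 758 in Pub1_Δ2 and 997 in Pub1_T2_Trc9. HSP12 was the 1 member called higher in Pub1_ΔIDR_3 (2.37% of genes higher, 2.78% lower) and in Pub1_ΔIDR_2 (2.46% and 3.89%). In Pub1_ΔIDR_2 the libraries had 167, 2642 and 157 RPM, and without replicate C1_2 no member was called higher and SSA2 and HSC82 were called lower. The call was also lost without intact replicate 2, 3 or 4, DESeq2 called HSP104 in place of HSP12, and without replicate C2_1 6 members were called higher. In Pub1_ΔIDR_3 the HSP12 call was lost without either deletion library or intact replicate 2. No member was called higher in Pub1_ΔIDR_1 (1.56% and 2.70%) or Pub1_Δ2 (1.91% and 4.63%), where 2 and 1 members were higher at an unadjusted p under 0.05 and DESeq2 called 0. Without intact replicate 1, which had the highest HSP12 level, HSP12 and DDR2 were called higher in both. Whether strains were grown on the same day is not in the labels, and a day of growth and a deletion cannot be told apart.

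**Figure D4:**
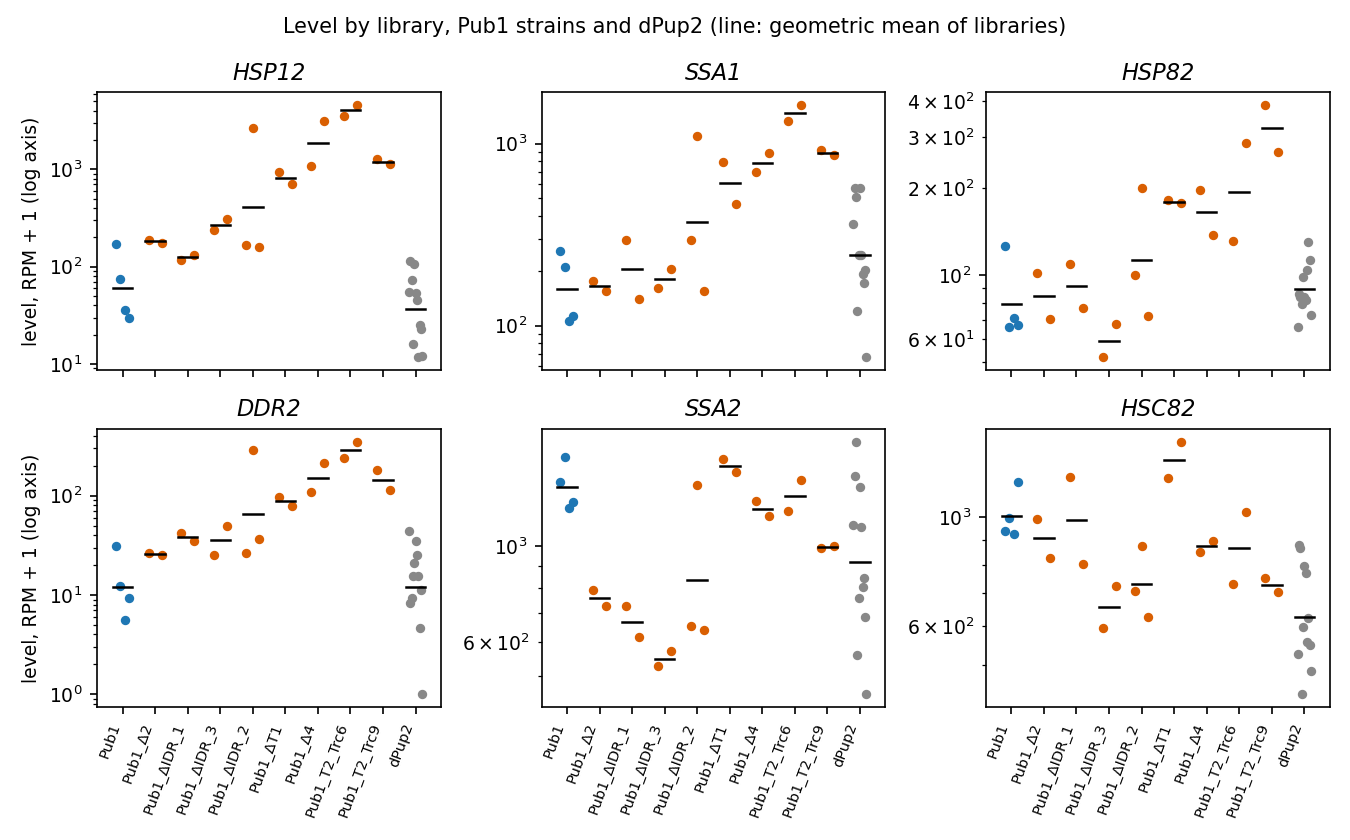
Level (RPM + 1, log axis) of 6 transcripts in each library (points) of intact Pub1 (blue), 8 Pub1 deletion strains (orange) and the dPup2 strains (grey), with the geometric mean as a line. HSP12, DDR2 and SSA1 are high in Pub1_ΔT1, Pub1_Δ4, Pub1_T2_Trc6 and Pub1_T2_Trc9, while SSA2 is lowest in Pub1_ΔIDR_3 and HSP12 in Pub1_ΔIDR_2 has 1 library far above the other 2.

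High level and tagged share were separate measures in these strains. HSP12 was at its highest level of all 90 strains in Pub1_T2_Trc6, with 2911 and 2008 reads, and 0.344% and 0.299% of them were tagged, whereas intact Pub1 had 16.9% to 60% of 7 to 195 reads. In Pub1_ΔT1, with HSP12 at 939 and 707 RPM, 17.5% and 17.3% were tagged. A high level thus came with a low share in the former strain and with a share like that of intact replicate 1 in the latter. Tagging of all genes differed likewise, with a median log2 ratio to intact Pub1 of -4.54 in Pub1_T2_Trc6 and -0.53 in Pub1_ΔT1.

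Outside Pub1 the members stood high in other strains and in other combinations. Puf4_T3 had the highest mean level of the 90 strains for 4 chaperones: SSA1 with 2070, 1823 and 2312 RPM, SSA2 with 2903, 2810 and 1954, HSP82 with 504, 491 and 252, and HSC82 with 1631, 1505 and 1078. HSP12, at 86.5, 53.1 and 63.1 RPM, and DDR2, at 25.9, 13.3 and 6.86 RPM, were near their medians in the same libraries. HSP26 was highest in the Mrn1 deletions, with 126 and 353 RPM in Mrn1_ΔIDR and 159 and 275 RPM in Mrn1_ΔRBD. The lowest strain means of HSP12 were 5.61 RPM in Mrn1 and 6.23 RPM in Tis11. HSP12 was higher in both Mrn1 deletions and in Nab6_Δ4 than in the intact strains, on a scale like that in Pub1. It had 0, 8.17 and 8.64 RPM in Mrn1, 109 and 400 RPM in Mrn1_ΔRBD and 79.1 and 289 RPM in Mrn1_ΔIDR. In Nab6 it had 5.94, 15 and 40.8 RPM, and in Nab6_Δ4 1523 and 303 RPM. All libraries of these 3 deletion strains lay above those of the intact strain for HSP12. The share of all genes that separated as fully was not counted. HSP12 also varied widely within strains, with an SD of log2(RPM + 1) of 1.35. The values of this paragraph are ranks and levels over many strains of few libraries, given with no test.

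Strain means of log2(RPM + 1) over the 90 strains correlated positively for all 45 pairs of members, a description in which both values of a pair come from the same libraries. The closest pairs were HSP42 with HSP104 (Pearson's r = 0.86, Spearman's rho = 0.81), HSP12 with DDR2 (0.80 and 0.73), HSP26 with SSA1 (0.75 and 0.79), HSP12 with SSA1 (0.71 and 0.70), HSP104 with DDR2 (0.70 and 0.66) and SSA2 with HSC82 (0.69 and 0.68), and the loosest was SSA2 with SSA4 (0.17 and 0.18). Among the deviations of the single libraries from their strain mean, r was 0.60, 0.47, 0.79, 0.66, 0.57, 0.79 and 0.15 for these 7 pairs. SSA2 was nearly as close to its Hsp70 relative SSA1 (0.68 and 0.65) as to HSC82. Over the 34 intact strains alone 6 of the 45 pairs, all of them with SSA4, had a negative r, down to -0.22 for HSP12 with SSA4. HSP82 had r = 0.50 with HSC82 and 0.63 with HSP104.

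**Figure D5:**
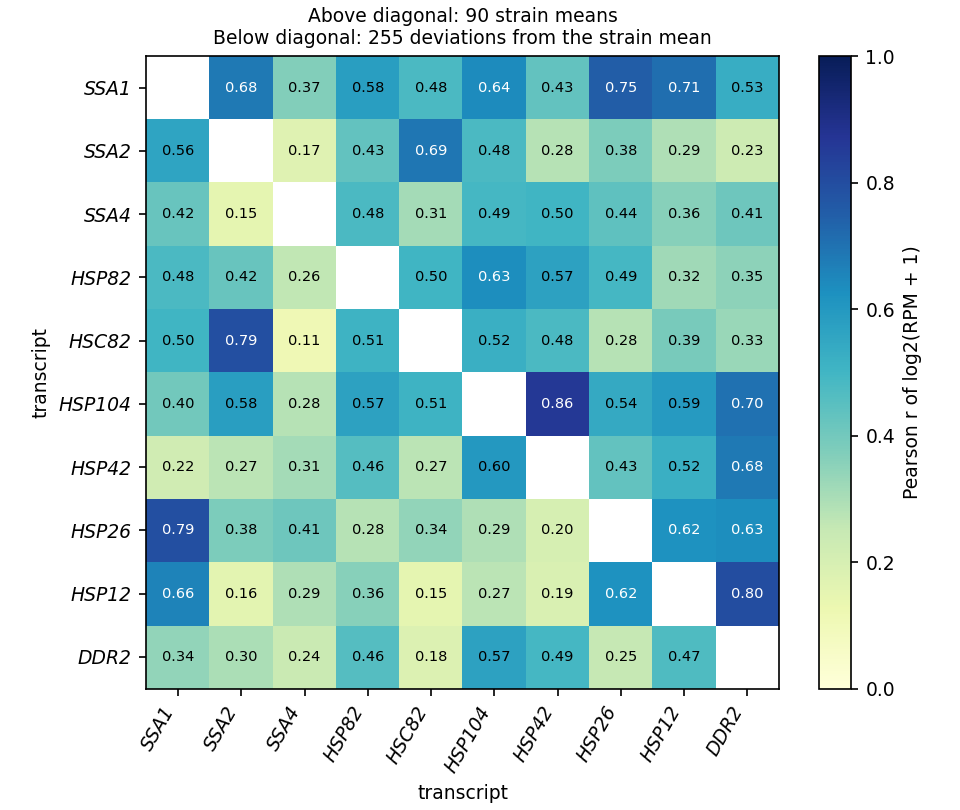
Pearson's r of log2(RPM + 1) for each pair of the 10 transcripts, over the 90 strain means above the diagonal and over the deviations of all libraries from their strain mean below it. All values are positive, HSP42 with HSP104 (0.86) is the highest above the diagonal, and SSA2 is close to HSC82 (0.69) and SSA1 (0.68) and far from SSA4 (0.17).

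Outside the members, the 3 genes with the most similar strain means were in part shared between members. For HSP12 they were HXK1 (r = 0.90), GPH1 (0.83) and MSC1 (0.82), and for DDR2 MSC1 (0.85), HXK1 (0.85) and RTC3 (0.84). For HSP104 they were RTC3 and PNC1 (0.84 each) and the glycerol synthesis gene GPD1 (0.82), and the same 3 genes headed HSP42 (0.77 each). HSP26 came closest to the aconitase gene ACO1 (0.72), the vacuolar protease gene PEP4 (0.71) and PST2 (0.71). SSA1 came closest to the aldehyde dehydrogenase gene ALD6 (0.76), PST2 (0.75) and the peroxiredoxin gene PRX1 (0.74). SSA2 came closest to ALD6 (0.68) and to CPR6 (0.68) and STI1 (0.61), of which CPR6 is an Hsp90 partner and STI1 links Hsp70 to Hsp90. STI1 also headed the lists of HSC82 (0.70, then TUB1 and NPC2 with 0.59 each) and HSP82 (0.68), where AHA1, which activates the Hsp90 ATPase (0.68), and the proteasome gene RPT3 (0.66) followed. For SSA4 they were MRP20 and NCE103 (0.64 each) and DDI1 (0.63). HXK1, GPH1, MSC1, PNC1, STI1, AHA1 and CPR6 were among the genes listed beside the members, and each value is over 90 strain means.

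The fusions themselves were compared with dPup2 for level in Puf3, Puf4 and Puf5. No member was called in Puf3 (0.365% of genes higher and 0.0768% lower), Puf4 (0% and 0%) or Puf5 (0% and 0%) against the dead fusion of the same protein, by edgeR or DESeq2, and 1, 4 and 2 members were higher and 2, 0 and 0 lower at an unadjusted p under 0.05. Without the Puf4 library C1_5, SSA1, SSA2, HSP42 and HSP104 were called higher in Puf4. None was called in the C-SWAT strains of Puf3 (0.0191% and 0.0381%, with 0 higher and 1 lower at an unadjusted p under 0.05) or Puf5 (8 members tested, 0.0223% and 0.312%, 0 and 0 at an unadjusted p under 0.05). In the C-SWAT strain of Puf4 (2.91% and 2.87%) HSP82 was lower by a log2 difference of -0.78 (SE 0.20, adjusted p = 0.0222, edgeR), a call lost with DESeq2 and when C-SWAT replicate 1, C-SWAT replicate 2 or dead replicate 2 was left out. In Puf5 the library C1_7 stood apart, with HSP12 at 2639 RPM against 11.2 to 334 in the other 5, DDR2 at 285 against 3.75 to 30.1 and HSP82 at 219 against 63.8 to 81.4.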

How the data were processed

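The authors made poly(U)-tagged mRNA libraries and deposited for each library the counts of reads per gene by number of added Us (0 to 16), within 300 bases before to 100 after the annotated transcript end, which counts transcripts at their end. Per the labels, bcl2fastq, cutadapt, Bowtie2 and bedtools were used with build R64, with no versions given. Levels are all reads of a gene scaled to 1000000 reads (RPM). Tagged reads (4 to 13 Us) were tested with edgeR 4.0.16 (R 4.3.3, quasi-likelihood test, two-sided) with the log of all reads of the gene as offset, for genes that reached 10 tagged reads and averaged 16 RPM, and levels with TMM scaling and filterByExpr, both with Benjamini-Hochberg adjustment over all genes tested. Differences in log2 come from these fits. DESeq2 1.42.0, limma 3.58.1, other U windows, filters, left-out libraries and blocks were alternatives. Single values were tested by exact permutation (scipy 1.17.1). Recovery of changes was measured on simulated data. With the design of Pub1_Δ2 against Pub1, 83.4% of 4-fold changes in tagged reads were recovered (1479 genes) and 17.0% of 2-fold changes (1480 genes). With that of Puf3 against its dPup2 strain, 100% of 4-fold level changes (5216 genes) and 79.0% of 2-fold ones (5221 genes) were recovered. In the real libraries of that comparison no member was called, with HSP12 at a log2 difference of 2.15 (adjusted p = 0.219, edgeR). HSP42 was at -1.51 (adjusted p = 0.142, edgeR). The SD of log2(RPM + 1) within strains was 1.35 for HSP12 and 1.15 for HSP42, against a median of 0.44 over all genes. Recovery for members with such a spread was not tested.

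Replicates are libraries the labels list separately. Nothing says which came from separate cultures, so p-values measure the spread between libraries, which may be technical. The 316 pairs of replicates differed by more than counting noise (lowest chi-square per degree of freedom 1.56, median 10.9), so none was counted as a repeat. Limits and shares cover counting error only. The members, the 2 gene lists and the added comparisons were chosen with earlier results of these data known. The text names the 10 members, for each list its highest and lowest 2 genes by SD, and for each member the 3 genes with the most similar strain means. Sequences are of the RefSeq R64 assembly, anchored at the start and stop codons. Gene names of neighbours come from the RefSeq annotation.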

Additional observations from a re-analysis of the deposited data

Results flagged for a closer look

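In 18 of 179 sets of 4 to 10 libraries of a strain, 1 library lay far from the others of its strain, where chance gives about 1 in 20. Puf5 library C1_7 was far above the other 5 for HSP12 (2639 RPM), DDR2 (285), HSP82 (219) and SSA4 (74.3). In Puf3_T1, library C1_1 stood apart for HSP26 (33.4 RPM), SSA1 (680) and HSC82 (1028), and in Puf3_T2 replicate 1 for HSP26 (43.8), SSA1 (729) and HSP82 (171). In Nsr1, replicate 3 stood apart for SSA4 (61.6 RPM) and for the tagged share of SSA2 (1.85%), and replicate 4 for HSP104 (51.2 RPM). The remaining libraries were Pub1 replicate 1 for HSP82 (125 RPM), Dhh1 replicate 1 for DDR2 (76.9), Npl3 replicate 2 for HSP12 (173), Nrd1 replicate 1 for HSP26 (110) and Puf4_T1 library C1_2 for SSA4 (27.3). What set these libraries apart was not tested.

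Reads with 14 or 15 Us lie outside the range counted as tagged, and some members carried more of them than in dPup2. DDR2 had 36.7% in Nab6_Δ2 (44 of 120 reads), 25.6% in Nab6 (10 of 39 reads, all in 1 of the 3 libraries), 22.4% in Nab6_ΔIDR_1, 19.6% in Mrn1 (10 of 51 reads) and 9.82% in Pub1_ΔIDR_3, against 0 of 300 reads in dPup2. With these reads, 55.8% of the DDR2 reads in Nab6_Δ2 carried 4 to 15 Us. Mrn1 and Nab6 are known for binding transcripts of cell wall genes, and DDR2 had too few reads there for a test. HSC82 had 7.58% in Pub1 (234 of 3087 reads), 1.93% in Pub1_ΔT1 and 0.236% in Pub1_Δ2, against 0.0625% in dPup2, and SSA2 had 1.61% in Pub1 against 0.0320%. HSP82 had 4.63% in Puf3_Δnon-RBD, 1.01% in Puf3_T5 and 0.389% in Puf3_T4, against 0 of 1284 reads.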

How the results depend on the processing

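Of the alternatives for tagged reads against dPup2, 125 of 138 kept direction and call, as did 303 of 316 for the Pub1 deletions and 266 of 291 for levels. Of the 270 alternatives for the correlations, which covered pseudocounts, scaling, rank, deviations within strains and depth, none turned the sign and 30 moved r by 0.1 or more. Counting 4 to 16 Us brings in the reads with 16 Us, which make up 4.56% to 7.55% of each member's reads over all libraries, 4.92% to 10.1% in dPup2 and 5.88% to 21.8% in Pub1. It left 0 members called in Ngr1, Nsr1, Puf3, Puf4 and Puf5 and 2 in Sro9, and turned the log2 ratio of SSA1 in Puf4 to -0.27 and of HSC82 in Puf5 to -0.07. With 5 to 13 Us Puf4 and Puf5 had 0, with no member tested. DESeq2 called 0 in Ngr1 and Puf4 and 2 in Sro9, and limma 0 in Puf4. Leaving out 1 library gave 0 to 1 calls in Ngr1, 0 to 0 in Puf4 (no member tested), 1 to 4 in Sro9 and 4 to 5 in Pub1, 1 to 3 lower and 0 to 1 higher in Pub1_ΔT1, and from 2 to 6 lower in the other Pub1 deletions.

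For levels, leaving out 1 library gave 0 to 4 members higher in Puf4 against its dead fusion and 0 to 1 lower in the Puf4 C-SWAT strain, where DESeq2 called 0. The comparisons of level in Pub1 deletions, the HSP82 shares in Puf3 strains, the copies compared within a library and the reads with 14 or 15 Us were added after seeing the data. Leaving out 1 library gave 0 to 2 members higher and 1 to 2 lower in Pub1_ΔIDR_3, 0 to 3 higher in Pub1_ΔIDR_1, 0 to 2 higher and 0 to 1 lower in Pub1_Δ2, 0 to 6 higher and 0 to 2 lower in Pub1_ΔIDR_2, and 0 to 1 lower in Pub1_T2_Trc9, while 6 to 8 stayed higher in Pub1_T2_Trc6, 8 to 8 in Pub1_T2_Trc9, 5 to 7 in Pub1_Δ4 and 5 to 7 in Pub1_ΔT1. DESeq2 called 0 higher and 2 lower in Pub1_ΔIDR_3, and RLE scaling 0 lower in Pub1_T2_Trc9. The cause of these changes was not tested, beyond members that fell below the read minimum.

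The replicate numbers were not taken to pair the samples. Deviations of same-numbered Puf3 and dPup2 libraries correlated with r = 0.24, -0.18 and 0.10, and those of the Puf4 C-SWAT pairs with -0.03. With only 2 shared numbers each, r was 0.15 and -0.10 for Pub1_ΔIDR_1 and Pub1, -0.08 and 0.20 for Pub1_Δ2, and 0.00 and -0.07 for Pub1_T2_Trc6. With the replicate block, Puf3 had 0 tagged members, with none tested, and 0 in the same 6 libraries without the block. The block gave 1 member with fewer tagged reads in Pub1_Δ2, and for level 1 higher in Pub1_ΔIDR_1 and 1 higher and 2 lower in Pub1_Δ2. It changed no other count by more than 1.5 times. Depth limits DDR2, HSP26, HSP42 and SSA4 most, with medians of 10.8 to 20.3 RPM.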
